A study of Mus musculus with 4 samples.

Results

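The 44 genes described here encode the machinery of DNA replication and entry into S phase, and they were followed in ovaries of female mice aged 8 weeks by single-cell RNA sequencing. The members were a fixed list of gene symbols, all 44 of which were found among the 32285 genes of the 4 matrices. Both groups carried Fosl2flox/flox, alleles with loxP sites around the coding part of the transcription factor gene Fosl2. The 2 control libraries (Fosl2F/F) had no Cre, and the 2 Fosl2cKO libraries also carried Cyp19a1-Cre, which is active in granulosa cells (GCs) once they express aromatase. The mice were littermates in estrus, and the text of the study gives n = 2 per group for the sequenced ovaries, which matches the 2 libraries. It does not say in so many words that each library was 1 mouse, so the p-values measure the spread between libraries.

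Replication begins when the origin recognition complex, Cdc6 and Cdt1 load the Mcm2-7 helicase on DNA in G1. Cdc45, the GINS complex and Mcm10 then help to activate the helicase. Primase starts the new strands, the replicative polymerases extend them with the sliding clamp Pcna, and Fen1 and Lig1 join the Okazaki fragments. In the ovary, GCs are the main dividing cells of growing follicles, and they leave the cell cycle when they become luteal cells after ovulation. E2F transcription factors drive many of these genes at the G1/S boundary, and mitotic genes such as Top2a and Cdk1 peak later in the cycle.

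After filtering, the libraries held 6760 to 19575 cells and 104303269 to 111314200 unique molecular identifiers (UMIs, each 1 counted transcript). Fosl2F/F 2 stood apart with a median of 3655 UMIs per cell against 11177 to 12465 in the others, and 12 to 49 cell barcodes were shared between pairs of libraries. Of 41538 cells, 15802 were granulosa-like by marker genes. Their Fosl2 level was 161, 167, 167 and 115 CPM (UMIs of the gene per 1000000 UMIs of the class) in Fosl2F/F 1, Fosl2F/F 2, Fosl2cKO 1 and Fosl2cKO 2, so the library labelled Fosl2cKO 1 was not below the controls. By the study's scheme the loxP sites lie around exons 2 and 4, the last of which holds the 3′ end that UMIs come from. Whether the removed part reaches that end is not given in the sources used here, so this level does not check the deletion. Plb1, named after its values were seen, stood at 0.0978 and 0.0519 CPM in Fosl2F/F against 477 and 242 CPM in Fosl2cKO libraries, and lies next to Fosl2 on chr5 (32232708 to 32366520 in GRCm38, with Fosl2 at 32135801 to 32157842). Below, 4 values in a row follow the order Fosl2F/F 1, Fosl2F/F 2, Fosl2cKO 1, Fosl2cKO 2.

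Replication transcripts were concentrated in a few classes of cells. In cycling granulosa-like cells, 2 clusters recognised by mitotic genes, the 44 members summed to 3492, 3168, 3271 and 3626 CPM. In cycling cells outside the GC clusters they summed to 3128, 3505, 3132 and 3262 CPM, close to the first class. Luteal-like cells, which should replicate little, held 446, 399, 529 and 492 CPM and served as the background. Stromal-like cells held 744, 667, 625 and 609 CPM and macrophage-like cells 770.0, 742, 783 and 798 CPM, both nearer to the luteal-like than to the cycling classes. The members were left out of the genes used for clustering, but cells were grouped by genes that vary with them, so levels between classes are a description with no test.

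The cycling cells outside the GC clusters numbered 814, of which 66 to 435 were in each library. Their lineage was not named, because markers of more than 1 type were present: the thecal gene Enpep stood at 390.0 to 618 CPM and the stromal gene Dcn at 542 to 865 CPM. The thecal gene Cyp17a1 was low there, at 46.3, 24.4, 0 and 50.2 CPM. Amh, a hormone of GCs of growing follicles, was at 3.21 to 10.2 CPM there and at 128 to 321 CPM in cycling granulosa-like cells. The granulosa marker Foxl2 separated them less, at 52.4 to 71.8 CPM there and 73.9 to 97.4 CPM in cycling granulosa-like cells.

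**Figure D1:**
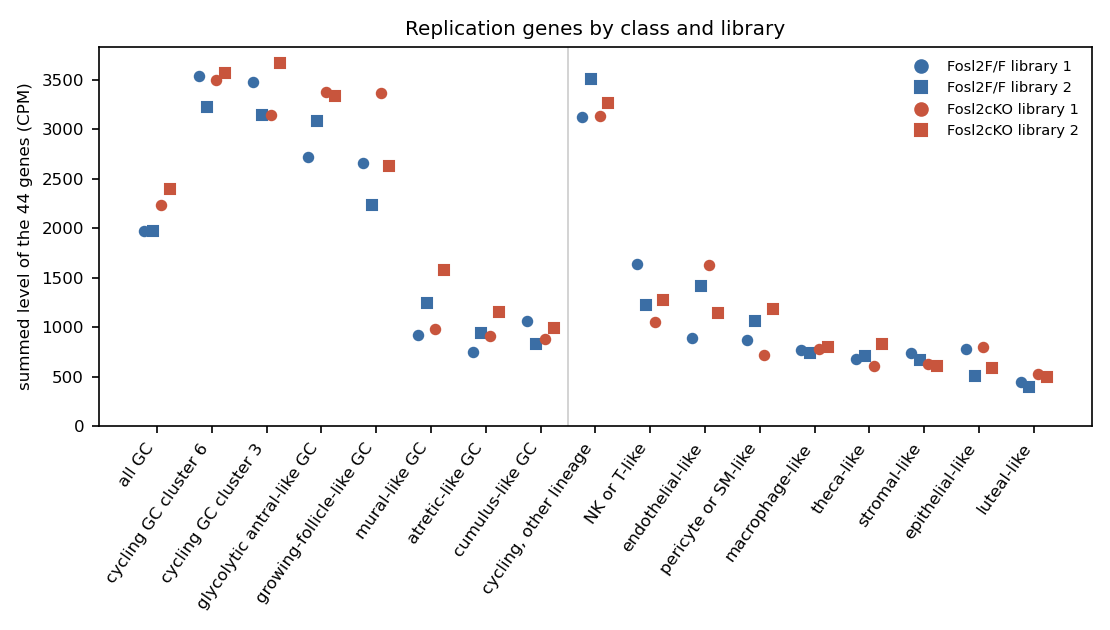
Summed level of the 44 members (CPM) in each class, 1 point per library, with Fosl2F/F and Fosl2cKO libraries in separate colours. The 2 clusters of cycling granulosa-like cells are shown apart (cluster 3, 3140 to 3668 CPM, and cluster 6, 3229 to 3571 CPM). They and the cycling cells outside the GC clusters (3128 to 3505 CPM) sit far above luteal-like cells (399 to 529 CPM).

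High member levels also occurred outside the mitotic clusters. Glycolytic antral granulosa-like cells, marked by Ldha and Pgk1, held 2719, 3085, 3372 and 3337 CPM of members and growing-follicle granulosa-like cells 2660.1, 2238, 3369.8 and 2629.8 CPM. Their summed level of 28 mitotic genes was 904, 1167, 1432 and 1014 and 918, 770.3, 1155 and 1286 CPM, against 6839, 6480.1, 6211 and 6094 CPM in cycling granulosa-like cells. Both subclasses were below cycling granulosa-like cells in 3 libraries and above them in Fosl2cKO 1, with a wider gap in growing-follicle than in glycolytic antral cells, while their mitotic level was far lower in all 4. The other named granulosa-like subclasses were lower, with 917, 1246, 980.0 and 1583 CPM in mural, 1062, 828, 877 and 991 CPM in cumulus and 749, 939, 912 and 1155 CPM in atretic granulosa-like cells, and their libraries overlapped one another.

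**Figure D2:**
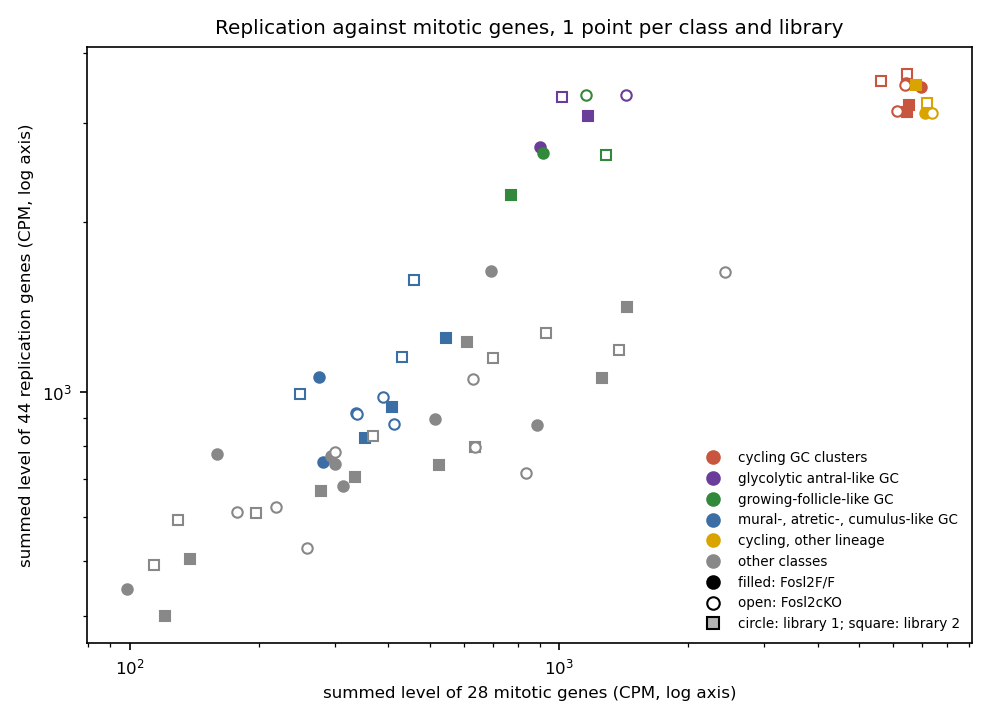
Summed level of the 44 replication genes against that of 28 mitotic genes (both CPM), 1 point per class and library. Cycling classes lie high on both, while glycolytic antral (2719 to 3372 CPM of members) and growing-follicle granulosa-like cells (2238 to 3369.8 CPM) lie nearer to them on the member axis than on the mitotic axis.

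The share of cells with replication transcripts followed the same order of states. Each cell was thinned to 2000 UMIs so that depth did not set the result, and a cell was counted when at least 3 of its UMIs came from members. The share was 86.0, 88.2, 91.0 and 89.1% in cycling granulosa-like cells. It was 68.4, 85.4, 92.2 and 84.4% in glycolytic antral and 66.1, 60.3, 79.5 and 66.2% in growing-follicle granulosa-like cells, both well above the remaining GC states. Mural granulosa-like cells gave 21.5, 37.6, 21.3 and 39.6%, with the libraries of each group far apart. Cumulus granulosa-like cells gave 30.5, 20.3, 19.8 and 24.2% and atretic granulosa-like cells 15.0, 21.7, 22.8 and 26.8%. Luteal-like cells gave the background, 11.9, 5.80, 9.32 and 7.27%, and all 6 granulosa-like subclasses were above it in each library. Wilson 95% intervals reached 1.35 to 6.20 points to either side and cover counting error only. In glycolytic antral cells, 52.9, 57.1, 55.4 and 60.6% of cells had 3 or more member UMIs and fewer than 3 mitotic UMIs. In cycling granulosa-like cells that share was 2.53, 1.54, 2.15 and 2.71%, and 83.4, 86.6, 88.9 and 86.4% had 3 or more of both, the mitotic part of which follows from how the clusters were named.

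The individual members differed in which GC state held them highest. Of the 44, 15 were higher in cycling granulosa-like than in both glycolytic antral and growing-follicle cells in all 4 libraries, 5 were lower than in both (Ung, E2f1, Cdt1, Mcm4 and Mcm6), and 24 were neither. Compared with luteal-like cells, cycling granulosa-like cells held 42 of 44 members at least 3-fold higher, with a median of 7.84-fold and a range from 2.64-fold (Ccne1) to 36.2-fold (Prim1). All 44 were higher in glycolytic antral than in cumulus granulosa-like cells in each of the 4 libraries.

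Of the 10 licensing genes, 7 were higher in glycolytic antral than in cycling granulosa-like cells in all 4 libraries. Cdc6, which loads the Mcm helicase, differed by a log2 ratio of -0.66 ± 0.13 (cycling minus glycolytic antral, mean ± SD of 4 libraries), with 17.0, 21.6, 28.4 and 31.8 CPM in glycolytic antral and 12.0, 13.7, 17.5 and 18.3 CPM in cycling cells. The ratio was -0.66 ± 0.12 for the helicase subunit Mcm2, -0.36 ± 0.20 for Mcm5, -0.33 ± 0.07 for Mcm6 and -0.50 ± 0.18 for the loader Cdt1. The helicase subunits Mcm3 and Mcm4 gave -0.46 ± 0.11 and -0.45 ± 0.11, while Mcm7 (-0.14 ± 0.13) and the origin subunit Orc6 (-0.05 ± 0.21) had libraries on both sides of 0. E2f1, the transcription factor of the G1/S boundary, gave -0.57 ± 0.19. Orc1, the largest subunit of the origin recognition complex, went the other way in all 4 libraries at 0.37 ± 0.13.

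The widest ratios belonged to a repair enzyme and to nucleotide supply. Ung, which removes uracil from DNA, stood at 67.7, 67.2, 94.9 and 88.6 CPM in glycolytic antral, 91.6, 62.8, 96.7 and 73.8 CPM in growing-follicle and 21.8, 20.4, 37.5 and 30.9 CPM in cycling granulosa-like cells, a ratio of -1.55 ± 0.17 (cycling minus glycolytic antral). Every library had Ung lower in the cycling class. Tk1, the thymidine salvage kinase, showed the reverse, with 12.0, 14.3, 14.4 and 16.2 CPM in glycolytic antral and 51.3, 33.6, 38.1 and 44.9 CPM in cycling cells, a ratio of 1.55 ± 0.38. The ribonucleotide reductase subunits Rrm1 and Rrm2 gave 1.06 ± 0.37 and 1.05 ± 0.44, and Tyms, which makes dTMP, gave 0.91 ± 0.32. Dut, which keeps dUTP low, was the nucleotide gene with the smallest ratio at 0.23 ± 0.26, and its libraries ran from -0.05 to 0.57.

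Fork proteins lay between these ends. The ratio (cycling minus glycolytic antral) was 0.67 ± 0.23 for Pole, the catalytic subunit of polymerase epsilon, 0.24 ± 0.15 for Pola1, of polymerase alpha, and 0.32 ± 0.20 for the primase subunit Prim1. Pcna stood at 144, 145, 158 and 153 CPM in glycolytic antral and 201, 181, 197 and 204 CPM in cycling cells, a ratio of 0.39 ± 0.08. The flap nuclease Fen1 gave 0.45 ± 0.19, the ligase Lig1 0.24 ± 0.16 and the single-strand binding subunit Rpa2 0.08 ± 0.17. Of the helicase activators, Cdc45 (0.44 ± 0.10) and Mcm10 (0.59 ± 0.18) were higher in cycling cells in all 4 libraries, while the GINS subunit Gins2 was lower (-0.38 ± 0.19). The clamp loader subunit Rfc4 gave 0.45 ± 0.14, positive in all 4 libraries, and Rfc3 gave -0.02 ± 0.19, with libraries on both sides of 0.

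**Figure D3:**
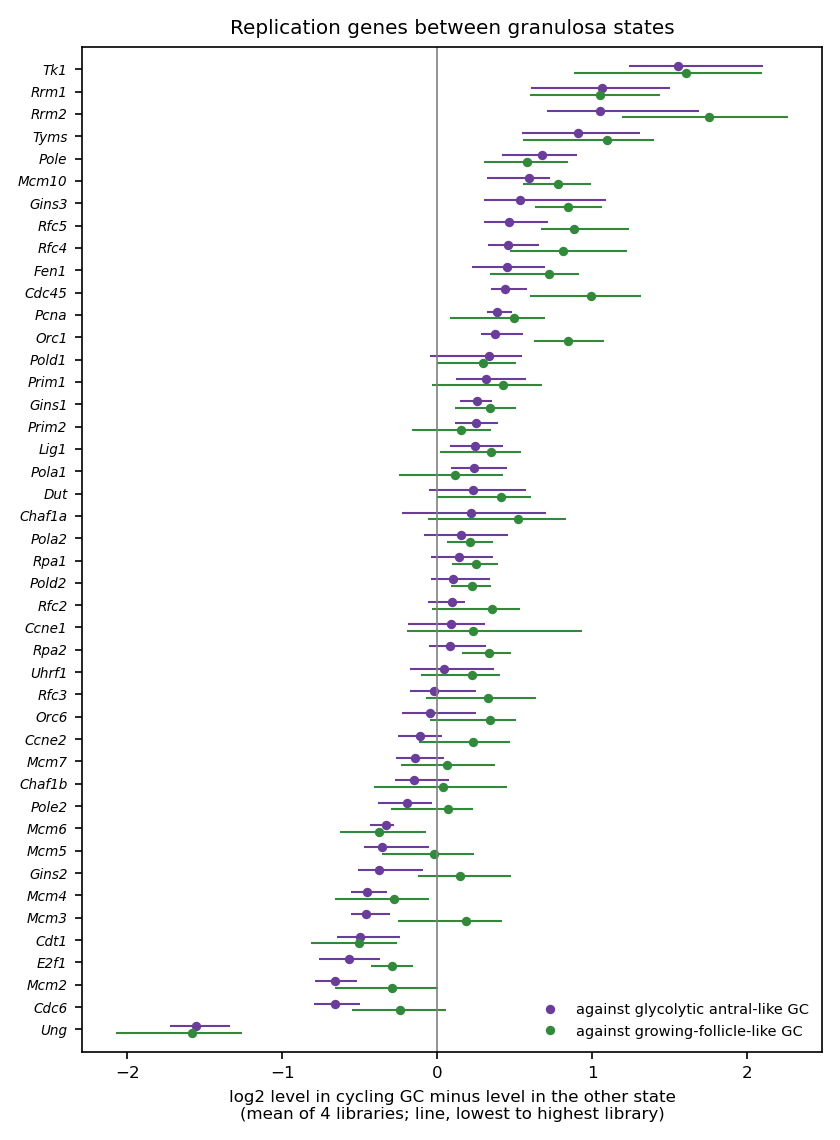
Log2 ratio of each member's level in cycling granulosa-like cells over glycolytic antral and over growing-follicle granulosa-like cells, in 2 colours. Points are means of the 4 libraries, and lines run from the lowest to the highest library. Values below are those against glycolytic antral cells. The order runs from Ung (-1.55) and Cdc6 (-0.66) at one end to Rrm1 (1.06) and Tk1 (1.55) at the other.

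Many replication genes are known targets of E2F factors, so the promoters of the members were read. RefSeq promoter sequences (GRCm38.p6, 300 bases, 250 before to 50 after the start) were found for 37 of 44 members. Any of the E2F-type words TTTCCCGC, TTTCGCGC, TTTGCCGC or TTTGGCGC, on either strand and with overlaps counted, was present in 11 of them (29.7%), against 2.34% of all 27025 promoters in the table. CCAAT was present in 20 (54.1%), against 37.8% of all. The windows below, of 30 bases, show what such a word looks like in licensing, helicase and polymerase genes, and are those of the 6 members whose window lay wholly upstream of the start, with the word in capitals, each written 5′ to 3′ along the gene, with a word on the opposite strand shown as its reverse complement.
Cdc6, chr11:98908002-98908031, plus strand: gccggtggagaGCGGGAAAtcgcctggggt
Orc1, chr4:108579416-108579445, plus strand: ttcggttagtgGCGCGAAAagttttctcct
Mcm5, chr8:75109345-75109374, plus strand: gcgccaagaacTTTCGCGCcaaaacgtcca
Mcm6, chr1:128359797-128359826, minus strand: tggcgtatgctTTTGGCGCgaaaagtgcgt
Gins3, chr8:95633507-95633536, plus strand: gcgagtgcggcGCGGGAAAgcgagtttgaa
Pola1, chrX:93632275-93632304, minus strand: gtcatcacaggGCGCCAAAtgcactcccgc
A word is a match of letters and not evidence of a bound factor. Of the genes described by condition below, Cdc6, Cdt1, Mcm5, Mcm6 and Pola1 were among those with a word. Chaf1a, Ccne1, E2f1, Ung and Uhrf1 were among those with none of the 4 words in this window.

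In several classes outside GCs, cells with mitotic transcripts held more of the members. Cells with at least 3 mitotic UMIs after thinning held more member UMIs than the other cells of their class, by 2.33 to 4.13-fold in endothelial-like, 2.84 to 3.80-fold in pericyte- or smooth muscle-like, 2.40 to 5.72-fold in NK- or T-like, 2.13 to 3.09-fold in stromal-like and 2.31 to 4.79-fold in theca-like cells over the libraries with enough cells. Macrophage-like cells gave 1.22 to 5.24-fold, a wide range. Some of these ratios rest on few cells, as thinning left out cells under 2000 UMIs. The 5.72-fold of NK- or T-like cells, in Fosl2F/F 2, compared 5 mitotic cells with 30 others, from 245 in the class. GCs were not uniform, with 1.78 to 3.17-fold in cumulus granulosa-like cells and 1.79 to 2.23-fold in all granulosa-like cells outside the cycling clusters. The 3.17-fold in cumulus granulosa-like cells, in Fosl2cKO 2, rested on 6 mitotic cells, and the other libraries gave 1.78 to 1.93-fold. The ratio was 1.03 to 1.55 in growing-follicle granulosa-like cells. In glycolytic antral granulosa-like cells the same ratio was 0.982 to 1.22, close to 1. Within the cycling granulosa-like clusters it was 0.594 to 0.667, so the 11 to 21 cells per library below 3 mitotic UMIs held more member UMIs than the rest. In cycling cells outside the GC clusters it was 0.538 to 0.577 in the 2 libraries with enough cells, the same direction. These are splits of cells within a library and no test was made of them.

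The cycling cells inside and outside the GC clusters did not hold the members in equal proportion. Of 44, 15 were higher in cycling granulosa-like cells than in cycling cells outside the GC clusters in all 4 libraries and 12 were lower. Tk1 stood at 111, 97.8, 76.9 and 104 CPM outside the GC clusters, above its 51.3, 33.6, 38.1 and 44.9 CPM in cycling granulosa-like cells. Ung was at 10.6, 16.4, 15.6 and 11.8 CPM there, below its 21.8, 20.4, 37.5 and 30.9 CPM in cycling granulosa-like cells. Uhrf1, which helps to copy DNA methylation at the fork, overlapped between the classes in its log2 ratio, at -0.71 to 0.16.

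Oocyte-like cells, 17 to 60 per library, held members at 3269, 3165, 3978 and 3085 CPM. They held Uhrf1 at 293, 588, 411 and 479.8 CPM and Ung at 185, 167, 183 and 128 CPM, each above its level in cycling granulosa-like cells in every library. Zp3, a gene of the egg coat, marked them at 1059.6 to 1646 CPM. Their median depth was low, 1556 to 4500.0 UMIs per cell, and with under 20 cells in Fosl2cKO 2 they were not compared by condition.

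The condition was compared in all granulosa-like cells, on UMIs summed per library, and all 44 members passed the filter on low genes there and in the cycling classes. No member passed the threshold of adjusted p under 0.1 and an absolute log2 fold change over 0.25 in edgeR's quasi-likelihood test, and 6 of 44 had an unadjusted p under 0.05. Over all 17270 genes tested, 0.00579% were called, which was Plb1 alone, and 4.79% had an unadjusted p under 0.05. DESeq2 called 1 member, Chaf1a, with an adjusted p of 0.036, among 173 genes.

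The direction was nevertheless shared by most members. Of 44, 41 had a positive log2 fold change (Fosl2cKO over Fosl2F/F), with a median of 0.22 against -0.02 for all genes tested. In 25 members both Fosl2cKO libraries were above both Fosl2F/F libraries and in 0 both were below. Over all genes these shares were 15.8% and 15.7%. The 28 mitotic genes gave a median of 0.17, with 24 positive. The members' median was 0.16 without the shallow library Fosl2F/F 2, and with 1 library left out it ran from 0.12 (without Fosl2cKO 2) to 0.28 (without Fosl2cKO 1). All members were measured in the same 4 libraries, so they are not independent of one another.

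Licensing genes were positive in 10 of 10, with a median log2 fold change of 0.24, and none was called. Cdc6 stood at 8.90 and 9.67 CPM in Fosl2F/F against 12.7 and 14.2 CPM in Fosl2cKO libraries, and the libraries of the groups did not overlap. Mcm2 stood at 54.1 and 43.96 CPM in Fosl2F/F against 60.5 and 57.5 CPM in Fosl2cKO libraries, Mcm5 at 37.9, 33.9, 45.5 and 43.5 CPM, Mcm6 at 81.8, 90.1, 90.9 and 94.3 CPM and Cdt1 at 18.6, 18.8, 23.4 and 24.1 CPM, with the Fosl2cKO libraries above the Fosl2F/F libraries for each. Orc1 at 17.3, 15.4, 16.1 and 17.9 CPM overlapped. The helicase subunits Mcm3, Mcm4 and Mcm7 gave log2 fold changes of 0.11, 0.27 and 0.22, and the origin subunit Orc6 0.05. In edgeR's test the adjusted p of each of the named licensing genes was 1, and for those with levels given the log2 fold changes ran from 0.06 (Orc1) to 0.53 (Cdc6).

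Helicase activators were positive in 5 of 5. Mcm10, which supports helicase start-up, stood at 11.2 and 13.8 CPM in Fosl2F/F against 17.3 and 17.7 CPM in Fosl2cKO libraries without overlap, and had a log2 fold change of 0.49 ± 0.20 (SE). Cdc45 at 26.1, 21.0, 27.3 and 30.1 CPM did not overlap, with 0.28 ± 0.19, and Gins2 at 35.2, 33.4, 34.3 and 39.4 CPM overlapped. The GINS subunits Gins1 and Gins3 gave 0.17 and 0.34. Polymerase and primase subunits were positive in 7 of 8. Pola1 at 80.0, 98.8, 106 and 127 CPM and Pole at 13.3, 14.8, 15.8 and 21.2 CPM did not overlap, while the primase subunit Prim1 at 23.2, 28.1, 22.1 and 29.9 CPM did. The other subunits Pola2, Pold1, Pole2 and Prim2 gave log2 fold changes of 0.28, 0.27, 0.34 and 0.35, and Pold2 gave -0.08.

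Clamp and loader genes had the smallest median of the roles, with a log2 fold change of 0.07 over 5 members. Pcna stood at 126, 110.2, 129 and 131 CPM, a log2 fold change of 0.14 ± 0.16, and Rfc3 and Rfc4 gave 0.07 and -0.02. Fen1 at 38.8, 32.5, 38.9 and 42.9 CPM did not overlap, by less than 1 CPM, whereas Lig1 at 64.2, 82.8, 79.2 and 87.6 CPM and Rpa2 at 48.4, 44.4, 47.4 and 52.9 CPM did. The clamp loader subunits Rfc2 and Rfc5 gave -0.00 and 0.08, and Rpa1, of the single-strand binding complex, 0.11. In nucleotide supply only Rrm1, at 56.9, 63.4, 74.0 and 69.5 CPM, had libraries without overlap. Rrm2 at 89.7, 63.1, 64.9 and 89.3 CPM, Tyms at 61.8, 56.7, 57.0 and 71.9 CPM, Tk1 at 18.6, 14.9, 18.3 and 20.6 CPM and Dut at 252, 220.2, 251 and 307 CPM each overlapped between groups.

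**Figure D4:**
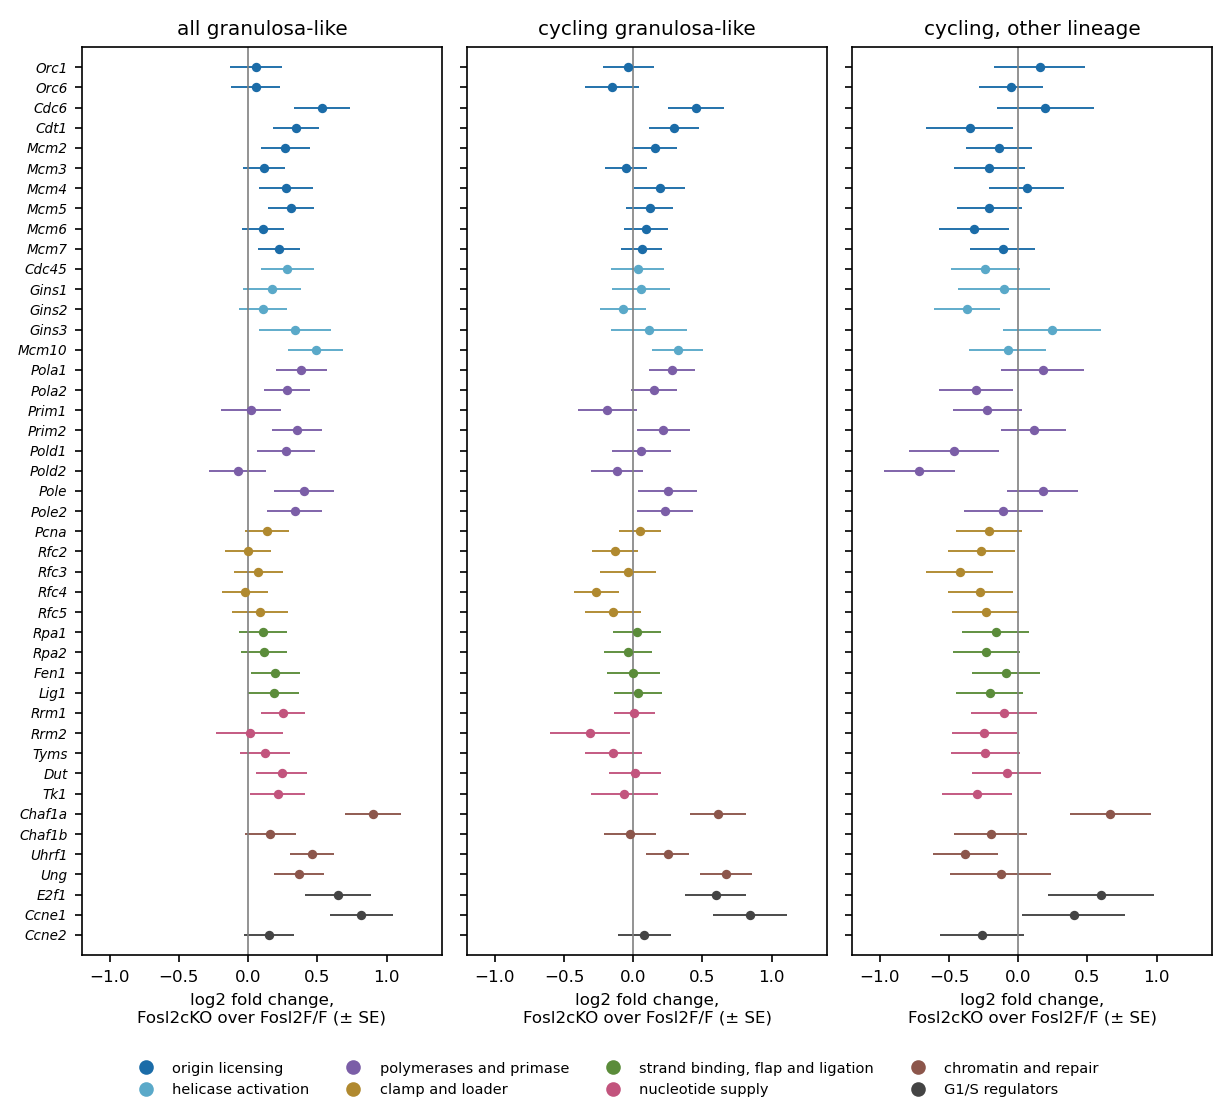
Log2 fold change (Fosl2cKO over Fosl2F/F, bars ± SE) of the 44 members in granulosa-like, cycling granulosa-like and cycling cells outside the GC clusters, ordered by role. Medians are 0.22, 0.05 and -0.20, and no member passed the threshold of edgeR's test in any of the 3.

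The highest fold changes were those of a chromatin and a G1/S gene. Chaf1a (chr17:56040439-56072289, GRCm38), a subunit of the histone chaperone that assembles nucleosomes behind the fork, stood at 10.5 and 13.1 CPM in Fosl2F/F against 20.8 and 23.2 CPM in Fosl2cKO libraries, a log2 fold change of 0.90 ± 0.20 (SE) with an unadjusted p of 0.0038 and an adjusted p of 0.64 (edgeR). Ccne1 (chr7:38097984-38107534, GRCm38), the cyclin that activates Cdk2 at S-phase entry, stood at 5.73 and 6.53 CPM in Fosl2F/F against 9.86 and 11.8 CPM in Fosl2cKO libraries, a log2 fold change of 0.82 ± 0.23 (SE) with an adjusted p of 0.86 (edgeR). In both genes the Fosl2cKO libraries lay well above the Fosl2F/F libraries, yet the call failed after adjustment over all genes. Uhrf1 (chr17:56303321-56323486, GRCm38) stood at 43.0 and 45.5 CPM in Fosl2F/F against 62.3 and 59.6 CPM in Fosl2cKO libraries, a log2 fold change of 0.46 ± 0.16. E2f1 at 8.16, 7.19, 10.3 and 13.8 CPM, Ung at 36.3, 29.9, 41.4 and 43.96 CPM and Ccne2 at 14.1, 14.5, 15.5 and 16.2 CPM also did not overlap, and Chaf1b, the partner of Chaf1a, at 19.0, 17.9, 19.0 and 22.3 CPM did.

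The makeup of the GCs differed between libraries and its part in these values was not tested. The cycling clusters held 17.4, 19.8, 23.3 and 21.5% of granulosa-like cells, so both Fosl2cKO libraries were above both Fosl2F/F libraries. Of the 2 cycling clusters, cluster 6 held 3.80, 6.40, 8.64 and 8.93% of granulosa-like cells, while the larger cluster 3 overlapped at 13.6, 13.4, 14.6 and 12.6%. The Wilson 95% intervals of the nearest pair for both clusters together, Fosl2F/F 2 (18.8 to 20.7%) and Fosl2cKO 2 (19.9 to 23.2%), overlapped. For cluster 6 alone, those of Fosl2F/F 2 (5.83 to 7.01%) and Fosl2cKO 1 (7.53 to 9.88%) did not. Such intervals cover counting error only and not the spread between libraries. Mural granulosa-like cells held 30.7, 15.2, 16.0 and 12.3% and cumulus 9.42, 31.8, 20.2 and 14.7%. In granulosa-like cells outside the cycling clusters the members' median log2 fold change was 0.24, with 41 of 44 positive and 24 above without overlap against 15.2% of all genes. The median in all granulosa-like cells was 0.22. Cells outside the cycling clusters are also a mix of states, with shares that differed between libraries. Again edgeR called no member there (background 0.00609%), with 3 at an unadjusted p under 0.05 against 4.07% of all genes.

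The share of granulosa-like cells with 3 or more member UMIs was 42.8, 50.2, 52.4 and 53.4% after thinning, a difference of 6.38 points. It was 2.69 points without Fosl2F/F 1 and 10.1 points without Fosl2F/F 2. Both Fosl2cKO libraries were above both Fosl2F/F libraries, which gives an exact two-sided permutation p of 0.33, the smallest that 2 libraries against 2 allow. Thinning left out cells under 2000 UMIs and kept 4447, 6055, 2139 and 2354 of 4576, 6629, 2200 and 2397 cells. Without thinning the shares were 92.8, 69.5, 94.9 and 96.0%, lowest in the shallow library. Thinned to 3000 UMIs, the groups overlapped and the exact permutation p was 0.667.

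**Figure D5:**
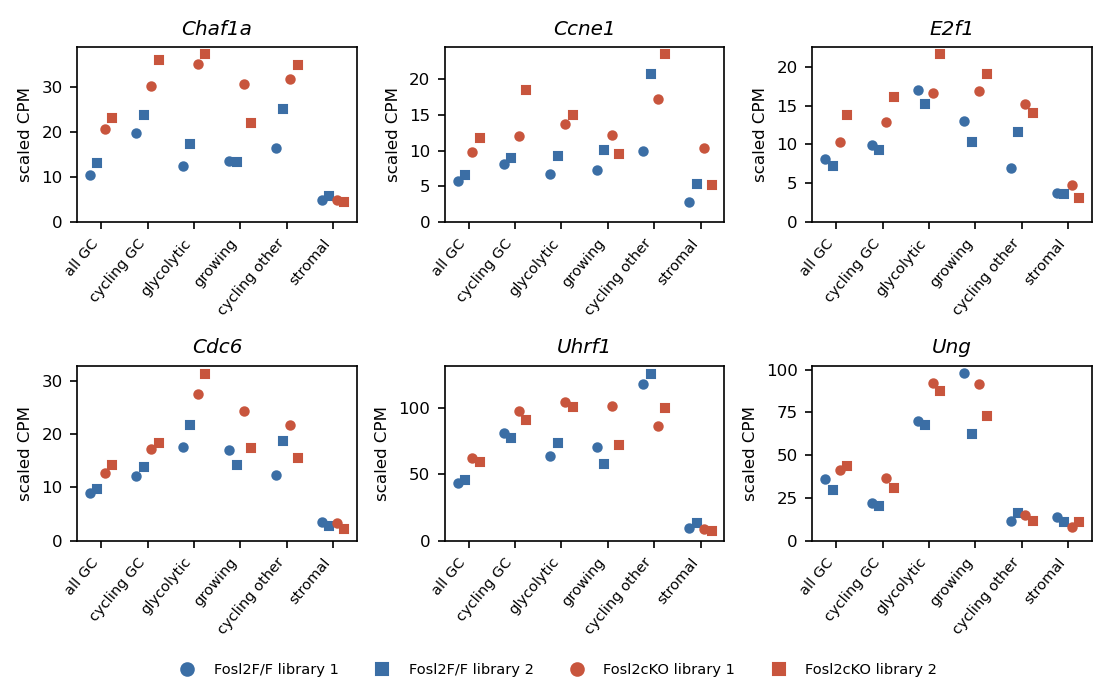
Level (CPM after scaling) of Chaf1a, Ccne1, E2f1, Cdc6, Uhrf1 and Ung in each library, with Fosl2F/F and Fosl2cKO libraries as separate points, in all granulosa-like cells, 3 of their subclasses, cycling cells outside the GC clusters and stromal-like cells. Chaf1a in all granulosa-like cells is 10.5, 13.1, 20.8 and 23.2 CPM and Ung in cycling granulosa-like cells 22.1, 20.4, 36.7 and 31.0 CPM, both without overlap, and the groups overlap for Chaf1a in stromal-like cells.

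Among cycling granulosa-like cells only, the fold changes of the members lay on both sides of 0. No member was called by edgeR or by DESeq2, and 4 of 44 had an unadjusted p under 0.05 against 7.16% of the 14556 genes tested, of which 0.00687% were called. The median log2 fold change was 0.05, with 29 members positive, 12 without overlap above (background 18.8%) and 1, Rfc4, below (background 19.1%). With 1 library left out the median ran from -0.02 (without Fosl2F/F 2) to 0.18 (without Fosl2F/F 1). Ung (chr5:114130386-114139323, GRCm38) stood at 22.1 and 20.4 CPM in Fosl2F/F against 36.7 and 31.0 CPM in Fosl2cKO libraries, a log2 fold change of 0.67 ± 0.19 (SE) with an adjusted p of 0.49 (edgeR). Ccne1 stood at 8.12 and 8.90 CPM in Fosl2F/F against 12.1 and 18.5 CPM in Fosl2cKO libraries, a log2 fold change of 0.85 ± 0.27 (SE) with an adjusted p of 0.55 (edgeR). Chaf1a stood at 19.7 and 23.8 CPM in Fosl2F/F against 30.3 and 36.1 CPM in Fosl2cKO libraries, a log2 fold change of 0.61 ± 0.20 (SE) with an adjusted p of 0.57 (edgeR). These 3 did not overlap between groups, and neither did E2f1 at 9.87, 9.35, 12.9 and 16.1 CPM. The class joined clusters 3 and 6, of which cluster 6 held more of the class in the Fosl2cKO libraries (174, 424, 190 and 214 cells, against 622, 886, 322 and 302 in cluster 3). Ung stood at 15.4, 17.4, 30.5 and 25.6 CPM in cluster 3, without overlap, and at 43.3, 26.9, 47.5 and 37.9 CPM in cluster 6, where the groups overlapped. Its log2 fold change was 0.78 in cluster 3 and 0.28 in cluster 6. Without Fosl2cKO 1, Ccne1 was the 1 member called, with a log2 fold change of 1.13, among 347 genes.

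Nucleotide supply and clamp genes of cycling granulosa-like cells lay near or under 0. Rrm2 stood at 251, 151, 127 and 196 CPM, a log2 fold change of -0.31 ± 0.29, with Fosl2F/F 1 far above the other Fosl2F/F library, and 0.11 without Fosl2F/F 1. Tk1 gave -0.06 ± 0.24, which became 0.30 without Fosl2F/F 1 and 0.07 without Fosl2cKO 1. Tyms gave -0.14 ± 0.21, and Pcna 0.05 ± 0.15, or -0.04 without Fosl2F/F 2. For each of these the groups overlapped. The licensing genes Mcm5 at 62.9, 53.0, 65.5 and 60.2 CPM and Mcm6 at 101, 118, 117 and 117 CPM overlapped too, while Mcm2 at 70.0, 59.6, 73.2 and 71.2 CPM and Cdc6 at 12.2, 13.8, 17.1 and 18.4 CPM did not.

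In cycling cells outside the GC clusters the direction was mostly negative. No member was called by either tool, 2 of 44 had an unadjusted p under 0.05 against 4.88% of all genes, and 0.0965% of the 11399 genes tested were called. The median log2 fold change was -0.20, with 34 of 44 negative, and -0.09 without Fosl2F/F 2. In 14 members both Fosl2cKO libraries were below without overlap (background 16.9%), and in 3 above (background 17.2%). Pold2 (chr11:5872180-5878292, GRCm38), an accessory subunit of polymerase delta, stood at 67.3 and 49.9 CPM in Fosl2F/F against 33.7 and 36.9 CPM in Fosl2cKO libraries, a log2 fold change of -0.71 ± 0.26 (SE) with an adjusted p of 0.78 (edgeR). Chaf1a again was higher in the Fosl2cKO libraries, at 16.3 and 25.1 CPM in Fosl2F/F against 31.7 and 34.8 CPM in Fosl2cKO libraries, with an adjusted p of 0.99 (edgeR). Rfc3, a clamp loader subunit, stood at 56.0 and 52.2 CPM in Fosl2F/F against 37.6 and 42.2 CPM in Fosl2cKO libraries without overlap, a log2 fold change of -0.42 ± 0.24. All 5 clamp and loader genes were negative, with 4 below without overlap. The 5 nucleotide supply genes were negative too, with log2 fold changes from -0.30 to -0.08. Uhrf1 at 118, 126, 86.5 and 99.7 CPM did not overlap, the Fosl2cKO libraries being lower. The class rested on 66 cells in Fosl2cKO 1, and a stricter removal of doublets moved its median to 0.02.

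The difference of the condition's effect between the cycling classes was tested in one model with the library as a block. No gene of 14515 was called, and no member, with 4 members and 3.61% of all genes at an unadjusted p under 0.05. The log2 difference (cycling granulosa-like minus the other cycling cells) was 0.61 ± 0.20 (SE) for Uhrf1, 0.60 ± 0.20 for Pold2, 0.77 ± 0.31 for Ung and 0.62 ± 0.27 for Cdt1, each with an adjusted p of 1 (edgeR). Of 44 members, 37 had a positive difference, with a median of 0.19 against -0.01 for all genes.

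No member was called in any of the 25 classes, subclasses and clusters in which members were tested, those above included, while 0 to 6 members per class had an unadjusted p under 0.05 (edgeR), against 2.33 to 10.8% of all genes. The 6 in glycolytic antral granulosa-like cells stood against 10.1% of all genes there, and the 5 of 29 in NK- or T-like cells against 10.7%. DESeq2 was run only in the 3 classes above. The share of all genes called was 0.00787% in mural, 0.00759% in cumulus, 0.00763% in atretic, 0.00818% in glycolytic antral and 0.00805% in growing-follicle granulosa-like cells. It was 0.00742% and 0.00815% in the cycling granulosa-like clusters taken apart, 0.0476% and 0.0231% in unnamed granulosa-like clusters and 0.00780% in luteal-like cells. Outside GCs it was 0% in theca-like, pericyte- or smooth muscle-like and lymphatic endothelial-like, 0.212% in endothelial-like, 0.115% in epithelial-like, 0.280% in macrophage-like, 0.283% in stromal-like and 0.737% in NK- or T-like cells. Clusters led by Abcb1b and Dync1i1, Asb4 and Tmem100, and Myh11 and Tagln gave 0.191, 0.0584 and 0.0290%. The count of 0 members called is to be read against these low shares. The medians ran from -0.62 (lymphatic endothelial-like, 13 members tested) to 0.30 (atretic granulosa-like). The lowest adjusted p was 0.18 in edgeR's test, for Mcm7 in NK- or T-like cells at 82.0 and 61.8 CPM in Fosl2F/F against 28.8 and 39.6 CPM in Fosl2cKO libraries. There 28 of 29 members tested were negative and 11 were below without overlap (background 21.4%). In stromal-like cells 34 of 44 were negative and 17 below without overlap (background 14.9%).

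In glycolytic antral granulosa-like cells 35 of 44 members were positive and 18 were above without overlap (background 21.1%), and Chaf1a was at 12.4 and 17.4 CPM in Fosl2F/F against 35.2 and 37.3 CPM in Fosl2cKO libraries, a log2 fold change of 1.31 ± 0.24 (SE) with an adjusted p of 0.22 (edgeR). In growing-follicle granulosa-like cells 40 were positive and 13 above without overlap (background 16.3%). Mural and atretic granulosa-like cells had 38 and 36 positive, whereas in cumulus granulosa-like cells 26 of 44 were negative, with a median log2 fold change of -0.08. No test compared the effect of condition between these states. Over 7 granulosa-like subclasses and clusters, the log2 fold change ran from 0.33 to 1.31 for Chaf1a, from 0.24 to 1.38 for E2f1, from 0.33 to 1.32 for Ccne1 and from -0.25 to 0.68 for Cdc6. These subclasses came from the same libraries and are not separate evidence. The highest E2f1 value, in atretic granulosa-like cells, had as few as 5 UMIs in a library. Outside GCs, Ccne1 gave 0.40 in the other cycling cells, 0.94 in the cluster led by Asb4 and Tmem100 and 0.31 in that led by Abcb1b and Dync1i1. E2f1 gave 0.60, 0.16 and -0.10 in the same order. Higher values occurred in other classes outside GCs. Ccne1 gave 1.17 in pericyte- or smooth muscle-like cells, with as few as 1 UMI in a library. The 3 G1/S regulators (E2f1, Ccne1 and Ccne2) ran from 0.60 to 1.83 in luteal-like cells and from -0.19 to 0.90 in stromal-like cells. Luteal-like cells had 13 of 41 members above without overlap (background 22.5%), but this class joined clusters 11 and 18, whose mix differed between groups. Cluster 18, led by Akr1c18 and Ptgfr, held 111, 342, 15 and 32 cells and cluster 11 held 65, 902, 317 and 260.

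A second list of 66 S-phase and G1 genes, which shares no gene with the members, also had no call in GCs. In all granulosa-like cells edgeR called none of the 66 tested, 9 had an unadjusted p under 0.05 and 48 were positive, with a median log2 fold change of 0.19. Over all genes there, edgeR called 0.00579%, 4.79% had an unadjusted p under 0.05 and 46.7% were positive. In cycling granulosa-like cells 42 were positive with a median of 0.04, and in the other cycling cells 28 with -0.04, and none was called in either. Over all genes, 49.9% and 50.7% were positive in these 2 classes, and 0.00687% and 0.0965% were called. Over all classes 1 gene of this list passed the threshold, Cdkn1c, an inhibitor of cyclin-dependent kinases. It did so in macrophage-like and stromal-like cells, where 0.280% and 0.283% of all genes were called. It rose in macrophage-like cells, at 0.513 and 1.81 CPM in Fosl2F/F against 67.7 and 35.5 CPM in Fosl2cKO libraries, with a log2 fold change of 5.39 ± 0.55 and an adjusted p of 0.0048 (edgeR), and in stromal-like cells, at 8.26 and 11.9 CPM in Fosl2F/F against 28.7 and 27.3 CPM in Fosl2cKO libraries, with 1.46 ± 0.33 and an adjusted p of 0.089 (edgeR).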

How the data were processed

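Ovarian cells of 4 libraries (2 Fosl2F/F, 2 Fosl2cKO) were captured with the 10x 3′ v3 kit. The authors aligned reads to GRCm38 with Cell Ranger and deposited UMI count matrices, from which all values here were made. Every barcode in these matrices had at least 500 UMIs. Whether ambient-RNA removal had been applied to the deposited counts is not given in the sources used here. Kept cells had 500 or more genes, more than 1000 UMIs, and mitochondrial and hemoglobin shares below 10% and 0.1%, and the highest Scrublet scores, 0.8% of cells per 1000 cells, were removed as doublets. This rule removed 19.4% of the cells of Fosl2F/F 2, the library with the most cells, and 5.74 to 7.01% in the others. Cells were clustered with Seurat 5.3.0 (sctransform 0.4.2) without the members and named "-like" from marker lists. Limits for naming were set after clusters had been seen. CPM is the summed count per 1000000 UMIs of the class, and scaled CPM, used between conditions, adds TMM factors.

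Conditions were compared on counts summed per class and library with edgeR 4.0.16 (filterByExpr, TMM, quasi-likelihood, Benjamini-Hochberg over all genes) where each library had at least 20 cells, and called at adjusted p under 0.1 and absolute log2 fold change over 0.25. DESeq2 1.42.0, other filters, thresholds and left-out libraries were alternatives. Shares were compared by an exact permutation test. On simulated counts with 200 genes changed 2-fold, the test found 64.5% of them in granulosa-like cells (17270 genes, 38 false calls), 78.5% in cycling granulosa-like cells (14556 genes, 45 false calls) and 44.00% in the other cycling cells (11399 genes, 7 false calls). These rates hold for 2-fold changes among many changed genes, and not for shifts as small as the members' median log2 fold change of 0.22 in granulosa-like cells. In granulosa-like and cycling granulosa-like cells, false calls were a larger share of all calls than the adjusted p limit of 0.1 aims for.

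Values are given for lead genes of each role, for members past the threshold and, where fewer than 3 passed, for the 3 of smallest p with a mean of at least 5 CPM. Other members named are extremes of a range, or were named after their values were seen. The members and lists were chosen with earlier results of these data known.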

Additional observations from a re-analysis of the deposited data

Results flagged for a closer look

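The summed member level was higher in both Fosl2cKO libraries than in both Fosl2F/F libraries in granulosa-like cells (1975, 1977, 2238 and 2393 CPM). The same held in luteal-like cells (446, 399, 529 and 492 CPM), with a log2 difference of 0.27 against 0.23 in granulosa-like cells, and in macrophage-like cells (770.0, 742, 783 and 798 CPM, 0.07). The mix of the luteal-like clusters 11 and 18 differed between groups, and its part in this value was not tested. It was lower in both in 4 other classes. These were stromal-like cells (744, 667, 625 and 609 CPM, a log2 difference between the effects of 0.419), lymphatic endothelial-like cells (1509, 894, 762 and 672 CPM, 0.926), a cluster led by Myh11 and Tagln (628, 641, 557 and 593 CPM, 0.369) and a cluster led by Abcb1b and Dync1i1 (486, 475, 432 and 457 CPM, 0.341). The differences between these effects were not tested. Oocyte-like cells, too few for a comparison by condition, held at least 3085 CPM of members in each library, above the luteal-like background of 399 to 529 CPM.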

How the results depend on the processing

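The count of members called stayed at 0 in cycling cells outside the GC clusters under all alternatives run. In granulosa-like cells it was 1 (Chaf1a) with DESeq2 and 1 (Chaf1a, adjusted p = 0.096 by edgeR) with no filter on low genes. In cycling granulosa-like cells it was 1 (Ccne1, adjusted p = 0.074) with no filter, and with 1 library left out it ran from 0 to 1 (Ccne1 without Fosl2cKO 1, edgeR adjusted p = 0.051). Whether same-numbered libraries were paired cannot be told, since 2 libraries a group give 1 contrast per group. The r of same-numbered deviations was -0.16, -0.22 and -0.14 in the 3 classes. With the replicate block 0 members were called in all 3 classes, among 44, 8 and 28 genes. With the numbers crossed, added after seeing the data, 0, 2 (Ung and Ccne1) and 0 members were called, among 2, 631 and 192 genes. Counts over all genes moved far more than those of members. They were 1, 1 and 11 as reported, 173, 175 and 15 with DESeq2, 271, 618 and 163 with no filter, 0 to 140, 1 to 347 and 0 to 129 with 1 library left out, 4 in the third class at adjusted p under 0.05, and 6 there with members among the clustering features. The difference between cycling classes gave 0 members under each alternative and 94 genes with no filter. The cause of these shifts was not tested. The median log2 fold change of the members ran from 0.12 to 0.28 in granulosa-like, from -0.02 to 0.18 in cycling granulosa-like and from -0.20 to 0.02 in the other cycling cells. Among named members, 447 values kept direction and call, 6 passed the threshold and 15 changed sign without a call. The difference in the share of granulosa-like cells with member UMIs ran from 4.09 to 8.01 points over other limits, depths and filters, and from 2.69 (without Fosl2F/F 1) to 10.1 points (without Fosl2F/F 2) with 1 library left out. With 2 libraries a group, the lone library of a reduced group was taken to vary like the others.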
